A study of Mus musculus with 12 samples.

Results

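The genes described here encode the chains of collagens and laminins. They were chosen by name: rows of both count tables whose mouse symbol has the form of a collagen chain (Col, a number, a, a number) or of a laminin chain (Lam, a letter a to c, a number), and whose level reached a CPM (counts scaled to library size) of 1 in at least 3 libraries. Of 56953 genes in each table, 55 had such a name and 50 passed, 39 collagens and 11 laminins. Of these, 44 reached that level in all 12 libraries. The genes that had the name and did not pass were Col10a1, Col17a1, Col28a1, Col6a4 and Col6a5.

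Messenger RNA had been measured in whole mouse spinal cords in 4 groups of 3 animals. The cKO animals had both Ddx20 alleles flanked by loxP sites together with the Plp-CreER transgene and were sampled 4 or 4.5 weeks after tamoxifen, and control animals were sampled at the same times after tamoxifen. The labels do not say which alleles or transgenes the controls carried, nor the animals' ages. Plp-CreER recombines loxP sites after tamoxifen in the cells where the promoter of the transgene is active, which are mainly oligodendrocytes and, in nerve roots, Schwann cells, so only part of the cells in a cord are targeted. In whole tissue, fewer cells of a type and less RNA per cell cannot be told apart.

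Collagens are triple helices of alpha chains. Fibrillar collagens (types I, II, III, V, XI, XXIV and XXVII) form the cables of connective tissue, FACIT collagens (fibril-associated collagens with interrupted triple helices) sit on their surface, and type IV collagen forms the sheet-like network of basement membranes. Laminins are cross-shaped trimers of 1 alpha, 1 beta and 1 gamma chain that bind cell surface receptors and start basement membrane assembly. In the cord these proteins lie mainly in the meninges, in the walls of blood vessels, at the border of astrocyte endfeet and in the nerve roots, and the tissue between the cells holds little fibrillar collagen.

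The libraries held 33104560 to 47677267 counts, and 19278 genes were tested. Levels are CPM after scaling between libraries. Ddx20 did not fall with the cKO label: it held 10.2, 11.1 and 9.9 CPM in cKO and 11, 9.78 and 11.1 CPM in control libraries at 4 weeks, and was higher in cKO at 4.5 weeks (log2 fold change 0.33, adjusted p = 0.013). Libraries are therefore called by their labels throughout, and "cKO" below means a library so labelled. Oligodendrocyte markers fell at both times (6 of 6 genes). Sex, read from Xist, was female in cKO libraries 1 and 2 and male in cKO library 3 and all 3 controls at 4 weeks, and female in all libraries at 4.5 weeks, so at 4 weeks sex and genotype cannot be fully told apart.

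Libraries differed within groups in markers of tissue that surrounds the cord. The summed level of 12 meningeal and perivascular fibroblast markers was 154, 148 and 31.6 CPM in cKO and 70.5, 114 and 169 CPM in control libraries at 4 weeks. At 4.5 weeks it was 44.1, 47.6 and 37.8 CPM in cKO and 183, 35.1 and 22.3 CPM in control libraries. Control library 1 of 4.5 weeks thus stood far above the other controls of its time, and cKO library 3 of 4 weeks was low. The transporter gene Slc22a6, among the most restricted of these markers, held 6.23 CPM in that control library and 0.389 and 0.0895 CPM in the other controls. That library also carried nerve root and ganglion RNA: 10 Schwann cell and nerve root markers summed to 374 CPM there, against 87.9 and 85.8 CPM in the other controls, and the sensory neuron channel gene Scn10a held 27.2 CPM, against 0.0519 and 0.0224 CPM. Skeletal muscle markers summed to 145 CPM in control library 2 of 4.5 weeks. The part of these tissues in the differences between groups was not tested beyond the values without control library 1 given below.

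Among the 50 genes, 15 were higher and 3 lower in cKO at 4 weeks, and 30 were higher and 3 lower at 4.5 weeks (edgeR's quasi-likelihood test, Benjamini-Hochberg adjusted p below 0.05 over all genes tested). The background was wide: of all genes tested, 20.1% were called higher and 17.2% lower at 4 weeks, and 33.3% higher and 32.6% lower at 4.5 weeks (37.2% and 65.9% in either direction). The median log2 fold change of the 50 was 0.09 at 4 weeks, against 0.01 for all genes, and 0.73 at 4.5 weeks, against 0.02 for all genes. A set of 15 genes was higher at both times, 14 were higher at 4.5 weeks without a call at 4 weeks, and 16 were called at neither time. Col11a2 was lower at 4 weeks and higher at 4.5 weeks, and Col19a1 was lower at both.

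**Figure D1:**
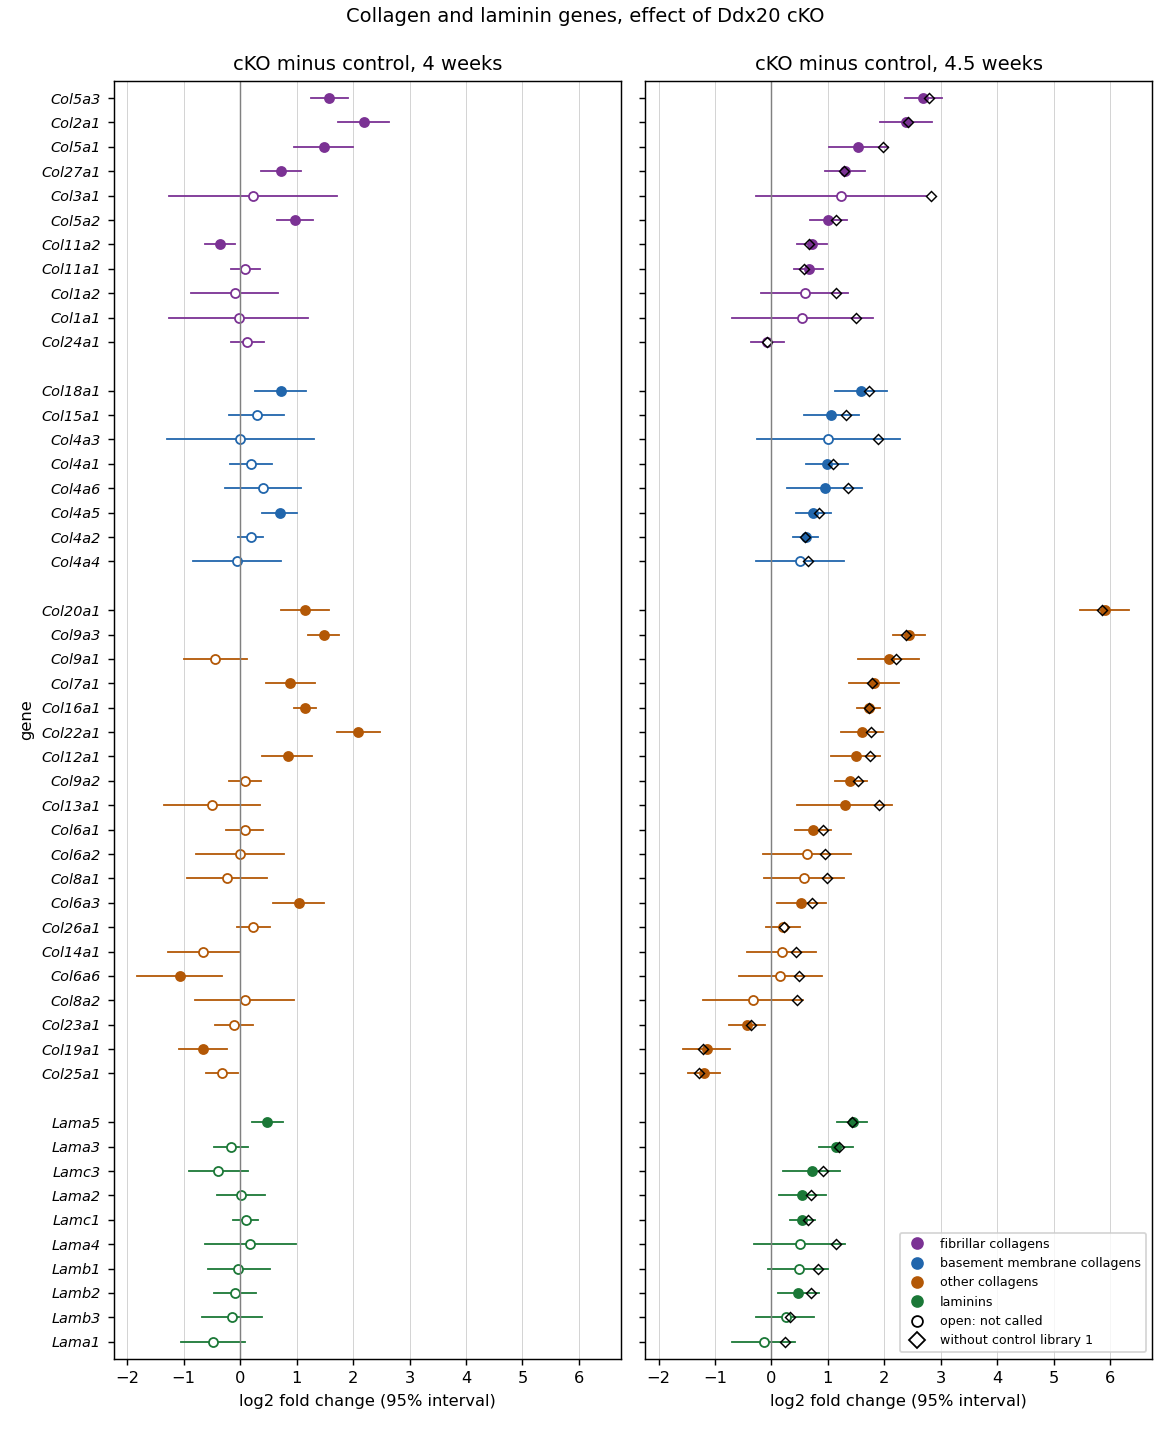
Log2 fold change, cKO minus control, of all but 1 of the 50 collagen and laminin genes at 4 weeks (left) and 4.5 weeks (right), with 95% intervals; filled circles passed the test, and diamonds are the values without control library 1 of 4.5 weeks. Most circles lie right of 0 at 4.5 weeks, with Col20a1 at 5.90 far from the others, and the diamonds stand apart from the circles for genes such as Col3a1 and Col1a1.

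In either direction 18 of the 50 were called at 4 weeks and 33 at 4.5 weeks, shares close to the 37.2% and 65.9% of all genes, so the larger number at 4.5 weeks is not particular to these genes. Of 11 fibrillar collagens, 5 were higher and 1 lower at 4 weeks and 7 higher at 4.5 weeks, with median log2 fold changes of 0.22 and 1.01. Of 8 basement membrane collagens (types IV, XV and XVIII), 2 were higher at 4 weeks and 6 at 4.5 weeks (medians 0.24 and 0.96). Of 20 other collagens, 7 were higher and 2 lower at 4 weeks, and 11 higher and 3 lower at 4.5 weeks (medians 0.08 and 0.68). Of 11 laminins, 1 was higher at 4 weeks and 6 at 4.5 weeks (medians -0.03 and 0.55). No test compared the classes with each other.

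The mean log2(CPM + 0.5) of a class was also taken in each library. For the other collagens it was 3.32, 3.35 and 3.12 in cKO and 2.88, 3.08 and 3.0 in control libraries at 4 weeks, and 3.91, 3.84 and 3.76 in cKO and 3.14, 2.87 and 2.64 in control libraries at 4.5 weeks. The groups did not overlap at either time. For the laminins it was 3.25, 3.37 and 2.89 in cKO and 3.01, 3.23 and 3.26 in control libraries at 4 weeks, which overlapped, and 3.85, 3.77 and 3.69 in cKO and 3.55, 3.0 and 2.84 in control libraries at 4.5 weeks, which did not. The basement membrane collagens overlapped at 4 weeks, with 3.6, 3.85 and 3.29 in cKO and 3.09, 3.48 and 3.39 in control libraries. In each class control library 1 was the highest control at 4.5 weeks and cKO library 3 the lowest cKO library at 4 weeks, the order of the fibroblast markers for these libraries.

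**Figure D2:**
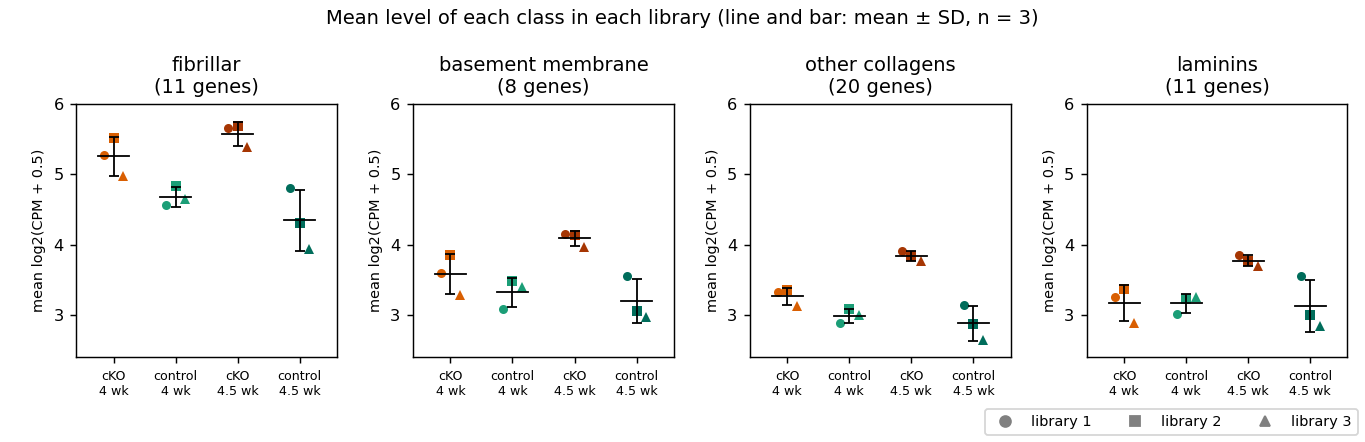
Mean log2(CPM + 0.5) over the genes of each class in each of the 12 libraries; symbols number the libraries of a group, lines and bars are mean ± SD (n = 3), and the vertical axis starts at 2.4. All 4 classes stand higher in cKO than in control libraries at 4.5 weeks, while at 4 weeks the laminins and the basement membrane collagens overlap.

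Divided by exon length, the levels had another order than in CPM. In controls at 4.5 weeks the highest of the 50 were Col11a2 with 15.2, Col1a2 with 12.2, Col16a1 with 9.48, Lamb2 with 8.80 and Col4a2 with 8.57 CPM per kilobase. Without control library 1, a setting chosen after seeing the data, the order there was Col11a2 with 15.6, Col16a1 with 9.45, Col11a1 with 8.64, Col4a2 with 8.55 and Col9a3 with 8.43 CPM per kilobase, and Col1a2 (8.31) and Lamb2 (7.48) had ranks 6 and 8. In cKO at 4.5 weeks the highest were Col9a3 with 44.3, Col16a1 with 31.2, Col20a1 with 27.1, Col11a2 with 24.9 and Col1a2 with 18.3 CPM per kilobase. Col20a1 thus had rank 3 of the 50 in that group and rank 40 in controls of the same time (rank 37 without control library 1). The lengths came from an annotation of another build than the authors used, so these values are approximate.

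The FACIT collagens, a part of the other collagens, held the gene with the largest log2 fold change of the 50, Col20a1. Of 9 measured (Col9a1, Col9a2, Col9a3, Col12a1, Col14a1, Col16a1, Col19a1, Col20a1 and Col22a1), 5 were higher and 1 lower at 4 weeks, and 7 higher and 1 lower at 4.5 weeks (median log2 fold change 0.84 and 1.61). Beside these stand 20.1% of all genes called higher and 17.2% lower at 4 weeks, and 33.3% and 32.6% at 4.5 weeks. Col20a1, whose product is little studied in mammals, held 4.36, 6.91 and 7.05 CPM in cKO and 2.71, 3.14 and 2.46 CPM in control libraries at 4 weeks. At 4.5 weeks it held 166.7, 128.7 and 122.8 CPM in cKO and 2.21, 2.02 and 2.71 CPM in control libraries. Every cKO library exceeded every control at both times. The log2 fold change was 1.15 ± 0.198 (SE, adjusted p = 0.00068) at 4 weeks and 5.90 ± 0.199 (adjusted p = 1.9e-10) at 4.5 weeks. The effect at 4.5 weeks exceeded that at 4 weeks by 4.75 on the log2 scale (95% interval 4.15 to 5.36, adjusted p = 1.9e-07).

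Col9a3 and Col16a1 were the FACIT genes with the highest levels per kilobase in each of the 4 groups. Col9a3, a chain of the type IX collagen that coats type II fibrils in cartilage, held 68.1, 79.2 and 93.3 CPM in cKO and 30.6, 30.8 and 25.2 CPM in control libraries at 4 weeks, and 152, 126 and 127 CPM in cKO and 23.2, 28.2 and 23.2 CPM in control libraries at 4.5 weeks. Col16a1 held 116, 133 and 130.3 CPM in cKO and 57.7, 65.0 and 48.8 CPM in control libraries at 4 weeks, and 171, 159 and 158 CPM in cKO and 49.6, 51.3 and 47.1 CPM in control libraries at 4.5 weeks. For both genes all cKO libraries lay above all controls at each time. The log2 fold changes of Col9a3 were 1.48 ± 0.126 and 2.44 ± 0.129 (SE) at 4 and 4.5 weeks, and those of Col16a1 were 1.15 ± 0.0913 and 1.72 ± 0.0924 (adjusted p = 3e-06, 5.6e-09, 1.7e-06 and 6.1e-09 in that order). Neither Col9a3 nor Col16a1 was higher in the control library rich in fibroblast and nerve root RNA than in the mean of the other controls by more than 1.01-fold.

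The other type IX chains were not called at 4 weeks and rose at 4.5 weeks. Col9a1 held 1.55, 1.21 and 1.32 CPM in cKO and 1.68, 2.62 and 1.25 CPM in control libraries at 4 weeks (log2 fold change -0.44, adjusted p = 0.21), and 7.23, 5.94 and 6.93 CPM in cKO and 1.86, 1.66 and 1.25 CPM in control libraries at 4.5 weeks (2.08, adjusted p = 8.8e-06). Col9a2 averaged 14.9 ± 1.51 CPM in cKO and 14 ± 1.55 CPM in control libraries at 4 weeks, and 30.2 ± 3.47 CPM in cKO and 11.4 ± 1.81 CPM in control libraries at 4.5 weeks (SD, n = 3 each, log2 fold change 0.09 and 1.40, adjusted p = 0.65 and 8.9e-07). The groups of both genes overlapped at 4 weeks and were apart at 4.5 weeks. The effect differed between the times for all 3 chains, by 2.51 for Col9a1, 1.32 for Col9a2 and 0.97 for Col9a3 (adjusted p = 0.00012, 0.00011 and 0.00078).

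Col22a1, a FACIT chain known from tissue junctions such as that of muscle and tendon, rose at both times. It held 16.4, 16.1 and 15.3 CPM in cKO and 3.43, 3.97 and 3.79 CPM in control libraries at 4 weeks, and 13, 9.42 and 10.2 CPM in cKO and 4.29, 3.76 and 2.66 CPM in control libraries at 4.5 weeks. The groups were apart at both times, with log2 fold changes of 2.09 ± 0.171 and 1.61 ± 0.170 (SE, adjusted p = 2.1e-06 and 2.6e-06). The difference between the times was -0.48 (95% interval -1.0 to 0.03, adjusted p = 0.12). Col12a1 was higher at both times (log2 fold change 0.84 and 1.49), and Col14a1 was called at neither (-0.65 and 0.18). With sex as a term in the model, Col12a1 had an adjusted p of 0.056 at 4 weeks, and Col14a1 was called lower there (-1.41, adjusted p = 0.019).

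Col19a1 was the FACIT gene that fell. It held 1.63, 1.46 and 1.16 CPM in cKO and 1.88, 2.18 and 2.66 CPM in control libraries at 4 weeks, and 2.41, 2.30 and 1.80 CPM in cKO and 4.42, 4.90 and 5.13 CPM in control libraries at 4.5 weeks. The groups did not overlap at either time (log2 fold change -0.66 and -1.15, adjusted p = 0.02 and 0.00016). The call at 4 weeks was lost without control library 3 (adjusted p = 0.089) and without cKO library 3 (adjusted p = 0.086), and with the fold change at -0.66 it was lost with a replicate block (0.07) and with each time fitted alone (0.062). Col19a1 was also the only one of the 50 called between the control groups, where 9.53% of all genes were called higher and 7.21% lower (16.7% in all): it was 1.10 higher on the log2 scale in controls at 4.5 weeks than in controls at 4 weeks (adjusted p = 0.0035, and 0.53 with a sex term, the 4-week controls being male).

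**Figure D3:**
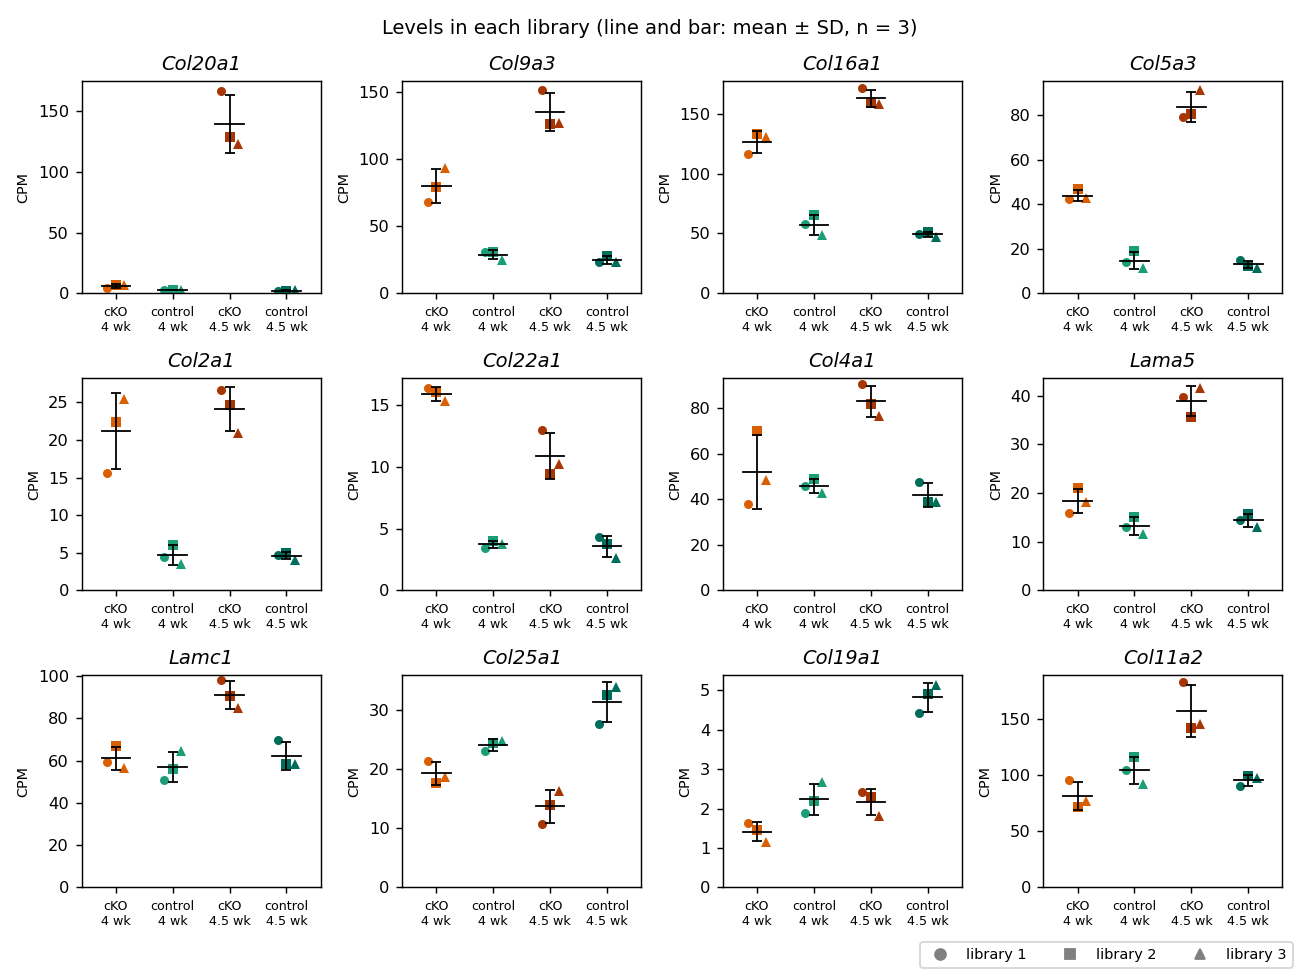
Levels (CPM, axes from 0) of 12 of the genes in each library, with cKO left of control at each time; symbols number the libraries, lines and bars are mean ± SD (n = 3). Col20a1 holds 122.8 to 166.7 CPM in cKO libraries at 4.5 weeks, Col22a1 is higher at both times, and Col25a1 and Col19a1 are lower in cKO.

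Promoter sequence is shown for the gene with the largest effect, Col20a1, and for Col5a3 and Col16a1, which were higher at both times and at 4.5 weeks by more. Each line gives the 250 bases before the RefSeq gene start, on the gene's strand, from GRCm38.p6, at chr2:180986285-180986534 (plus strand) for Col20a1, chr9:20815068-20815317 (minus strand) for Col5a3 and chr4:130047590-130047839 (plus strand) for Col16a1. Capitals mark matches, on either strand, to the GC box (GGGCGG), the CCAAT box (CCAAT) and the AP-1 motif (TGANTCA).
Col20a1: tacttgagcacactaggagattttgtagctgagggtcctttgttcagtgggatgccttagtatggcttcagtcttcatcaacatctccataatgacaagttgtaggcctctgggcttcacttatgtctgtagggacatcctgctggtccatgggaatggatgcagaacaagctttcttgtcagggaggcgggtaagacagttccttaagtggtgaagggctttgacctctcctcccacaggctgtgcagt
Col5a3: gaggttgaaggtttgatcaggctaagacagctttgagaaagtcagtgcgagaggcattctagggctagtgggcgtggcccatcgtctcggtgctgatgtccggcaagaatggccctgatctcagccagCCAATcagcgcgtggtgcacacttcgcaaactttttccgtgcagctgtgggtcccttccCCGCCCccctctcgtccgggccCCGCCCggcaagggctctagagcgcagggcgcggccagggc
Col16a1: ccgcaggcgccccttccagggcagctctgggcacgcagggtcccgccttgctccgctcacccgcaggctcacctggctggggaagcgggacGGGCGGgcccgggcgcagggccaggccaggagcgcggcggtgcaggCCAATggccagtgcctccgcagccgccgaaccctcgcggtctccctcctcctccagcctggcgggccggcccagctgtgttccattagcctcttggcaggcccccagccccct
The Col20a1 window held none of the motifs, and the windows of Col5a3 and Col16a1 held GC boxes and a CCAAT box each. RefSeq windows were matched for 35 of the 50 genes, 39 windows in all. A GC box stood in 22 of these (56.4%), against 32.7% of 32851 windows of all genes, a CCAAT box in 12 (30.8%, against 33.8%) and an AP-1 motif in 1 (2.56%, against 6.75%). These are matches of letters only.

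Among the remaining non-fibrillar collagens, Col7a1, the anchoring fibril chain, was higher at both times: it averaged 8.49 ± 1.19 CPM in cKO and 4.58 ± 1.05 CPM in control libraries at 4 weeks, and 12.2 ± 2.79 CPM in cKO and 3.47 ± 0.299 CPM in control libraries at 4.5 weeks (SD, n = 3 each). Type VI chains, which form beaded filaments around cells, were mixed: Col6a3 was higher at both times (log2 fold change 1.04 and 0.53), Col6a1 at 4.5 weeks (0.73), Col6a6 was lower at 4 weeks (-1.07), and Col6a2 was called at neither (-0.01 and 0.63). The 4.5-week call of Col6a3 was lost without control library 2 or 3 or cKO library 1 or 2, with adjusted p from 0.074 to 0.19. The 4-week call of Col6a6 was lost in 8 of 21 other settings. Type VIII chains, which form networks in vessel walls, were called at neither time. Col8a2 held 3.50, 3.70 and 2.78 CPM in cKO and 7.73, 2.57 and 2.28 CPM in control libraries at 4.5 weeks, where control library 1 was over 3 times the mean of the other controls (log2 fold change -0.33, and 0.45 without that library).

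The transmembrane collagens split. Col25a1, which neurons express and whose shed part binds amyloid, held 21.4, 17.7 and 18.7 CPM in cKO and 23, 24.5 and 24.8 CPM in control libraries at 4 weeks (log2 fold change -0.32, adjusted p = 0.071). In 6 of 21 other settings it was called lower at 4 weeks. At 4.5 weeks it held 10.8, 14 and 16.3 CPM in cKO and 27.6, 32.6 and 33.9 CPM in control libraries, and fell by 1.20 on the log2 scale (SE 0.133, adjusted p = 4.3e-06). Col23a1 was lower at 4.5 weeks (-0.43, adjusted p = 0.023), a call lost without control library 1 or 2 or cKO library 1 or 3 (adjusted p from 0.07 to 0.098). Col13a1 rose to 3.93 ± 0.164 CPM in cKO, against 1.60 ± 0.977 CPM in control libraries, at 4.5 weeks (SD, n = 3 each, log2 fold change 1.30, adjusted p = 0.0097). Beside the falls, 5 of 5 neuron markers were lower at 4.5 weeks, with sums of 1065, 1182 and 1164 CPM in cKO and 4724, 4677 and 4759 CPM in control libraries; their part in the falls was not tested.

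Of the fibrillar collagens, Col2a1, Col5a1, Col5a2, Col5a3 and Col27a1 rose at both times. They include all 3 type V chains, which join type I fibrils and set their width. Col5a3 held 42.3, 46.8 and 42.7 CPM in cKO and 14, 18.8 and 11.3 CPM in control libraries at 4 weeks, and 79.3, 80.4 and 91.3 CPM in cKO and 14.8, 12.5 and 11.6 CPM in control libraries at 4.5 weeks. Its log2 fold change was 1.58 ± 0.149 at 4 weeks and 2.69 ± 0.152 at 4.5 weeks (SE, adjusted p = 6.6e-06 and 9.6e-09), larger at 4.5 weeks by 1.11 (adjusted p = 0.00094). Col5a1 and Col5a2 rose without such a difference between the times. Col5a1 averaged 40.3 ± 3.83 CPM in cKO and 14.5 ± 1.78 CPM in control libraries at 4 weeks, and 34.4 ± 2.43 CPM in cKO and 11.8 ± 5.51 CPM in control libraries at 4.5 weeks (log2 fold change 1.48 and 1.54, adjusted p = 0.00041 and 8.3e-05). Col5a2 averaged 40.8 ± 7.47 CPM in cKO and 20.8 ± 0.629 CPM in control libraries at 4 weeks, and 37.1 ± 5.74 CPM in cKO and 18.4 ± 3.02 CPM in control libraries at 4.5 weeks (SD, n = 3 each, log2 fold change 0.97 and 1.01, adjusted p = 0.00026 and 4.8e-05). The groups of each type V chain were apart at both times.

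Among chains known from cartilage, Col2a1 and Col27a1 rose at both times and the type XI chains differed by time. Col2a1, the main cartilage collagen, held 15.6, 22.4 and 25.5 CPM in cKO and 4.49, 6.06 and 3.45 CPM in control libraries at 4 weeks, and 26.7, 24.7 and 20.9 CPM in cKO and 4.74, 4.98 and 4.10 CPM in control libraries at 4.5 weeks. It was apart at both times (log2 fold change 2.19 ± 0.211 and 2.39 ± 0.210, SE, adjusted p = 8.1e-06 and 4.8e-07). Col27a1 averaged 30.8 ± 2.31 CPM in cKO and 18.7 ± 3.47 CPM in control libraries at 4 weeks, and 40.5 ± 9.54 CPM in cKO and 16.5 ± 1.75 CPM in control libraries at 4.5 weeks (SD, n = 3 each, log2 fold change 0.72 and 1.30, adjusted p = 0.0042 and 1.4e-05). Of the type XI chains, Col11a1 was called at 4.5 weeks alone (log2 fold change 0.09 and 0.66). Col11a2 was lower in cKO at 4 weeks (-0.36, adjusted p = 0.036) and higher at 4.5 weeks (0.72, adjusted p = 0.00018); the 4-week call was lost without control library 1 or 2, without cKO library 2 or 3, with a sex term, with a replicate block and with each time fitted alone (adjusted p from 0.053 to 0.14). Of 8 cartilage and bone markers, 2 were higher and 2 lower at 4 weeks, and 3 higher and 3 lower at 4.5 weeks. They summed to 75.7, 90 and 92.2 CPM in cKO and 36, 35.8 and 41.8 CPM in control libraries at 4 weeks, and to 47.3, 45.6 and 44.1 CPM in cKO and 50, 49.7 and 54.6 CPM in control libraries at 4.5 weeks. The osteocalcin genes Bglap and Bglap2, near-identical copies between which reads may be split uncertainly, were higher at both times, and Bglap2 held 41.2, 49.8 and 50.9 CPM in cKO and 0.222, 0.215 and 0.0512 CPM in control libraries at 4 weeks. Acan and Dmp1 were lower at both times (log2 fold change -0.59 and -1.19 for Acan, -0.83 and -1.47 for Dmp1). At 4.5 weeks Matn1 was higher (3.09) and Chad lower (-2.06), and Ibsp and Cnmd were called at neither time. The part of such cells in the collagen values was not tested.

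The bulk collagens of meninges and other connective tissue, Col1a1, Col1a2 and Col3a1, were called at neither time by edgeR's test with all libraries. Col3a1 held 28.5, 56.0 and 13.3 CPM in cKO and 20.1, 24.3 and 39.3 CPM in control libraries at 4 weeks, and 48.6, 59.3 and 31.7 CPM in cKO and 46.7, 8.74 and 4.45 CPM in control libraries at 4.5 weeks. Col1a1 held 45.8, 56.6 and 13.8 CPM in cKO and 27.9, 38.7 and 51.3 CPM in control libraries at 4 weeks, and 39.0, 45.5 and 24.8 CPM in cKO and 49, 18.2 and 7.72 CPM in control libraries at 4.5 weeks. The groups overlapped at each time. At 4.5 weeks control library 1 was as high as the cKO libraries. At 4 weeks cKO library 3 was below every control, and cKO libraries 1 and 2 overlapped the controls as well. Col1a2 held 92.4, 99.8 and 44.9 CPM in cKO and 66.5, 84.5 and 103 CPM in control libraries at 4 weeks, and 108, 104 and 81.6 CPM in cKO and 107, 53.5 and 35.3 CPM in control libraries at 4.5 weeks. The log2 fold changes at 4.5 weeks were 1.23 ± 0.694 for Col3a1, 0.55 ± 0.575 for Col1a1 and 0.59 ± 0.357 for Col1a2 (SE, adjusted p = 0.14, 0.42 and 0.16). At 4 weeks they were 0.22, -0.02 and -0.10 (adjusted p = 0.83, 0.98 and 0.85). Without control library 1 of 4.5 weeks they were 2.82 for Col3a1, 1.49 for Col1a1 and 1.14 for Col1a2 (adjusted p = 0.00079, 0.027 and 0.0061). With all libraries, Col3a1 was called higher at 4.5 weeks by limma-voom (1.93, adjusted p = 0.023) and with a replicate block (1.84, adjusted p = 0.035).

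**Figure D4:**
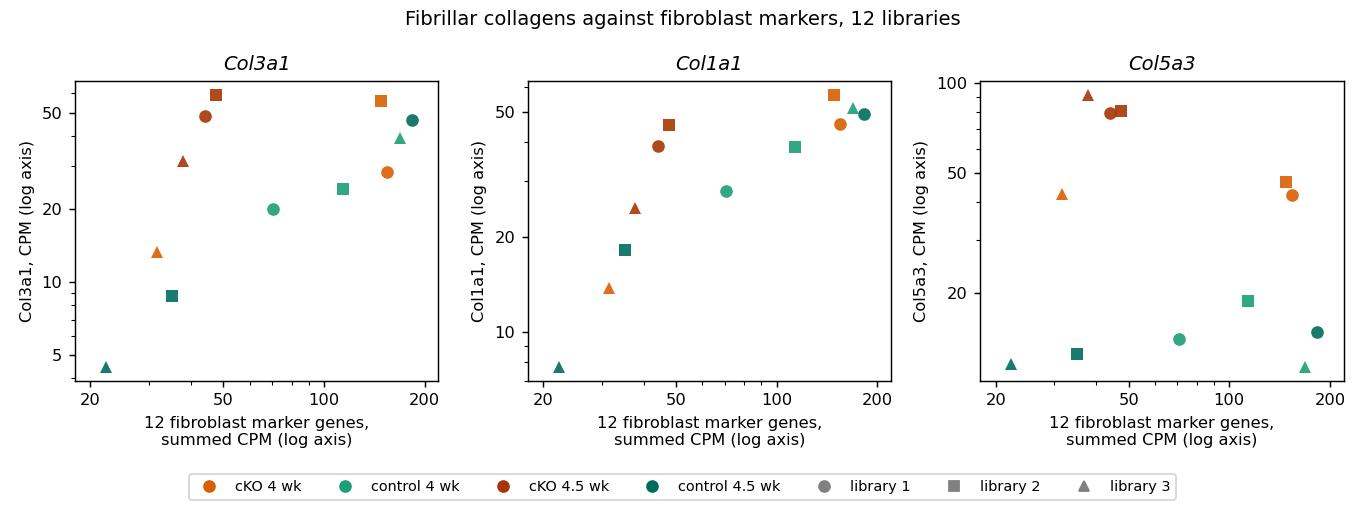
Levels of Col3a1, Col1a1 and Col5a3 (CPM, log axes) against the summed level of 12 fibroblast marker genes (CPM, log axis) in the 12 libraries; colours are groups and symbols number the libraries. Col3a1 and Col1a1 are low where the markers are low, except in the cKO libraries of 4.5 weeks, which hold 31.7 to 59.3 CPM of Col3a1 at marker sums of 37.8 to 47.6 CPM, while Col5a3 follows the genotype.

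Set beside the fibroblast markers, the type I and III genes of the cKO cords at 4.5 weeks stood apart from those of controls 2 and 3, whose marker sums were also low. Controls 2 and 3 of 4.5 weeks had marker sums of 35.1 and 22.3 CPM with 8.74 and 4.45 CPM of Col3a1, and cKO library 3 of 4 weeks had 31.6 CPM with 13.3 CPM of Col3a1. In the test with all libraries, so with control library 1, the 12 markers did not move as 1 group at 4.5 weeks. There 2 were higher and 2 lower, among them Dpep1 (log2 fold change 2.90) and Slc22a6 (-5.09). Slc22a6 held 0.0993, 0.0821 and 0 CPM in the cKO libraries. It held 6.23 CPM in control library 1 and 0.389 and 0.0895 CPM in controls 2 and 3. With all libraries, 5 of the 12 had fold changes above 0 and 7 below at that time. Lum held 11.1, 14.4 and 6.71 CPM in the cKO libraries of 4.5 weeks and 2.8 and 2.01 CPM in controls 2 and 3. Foxc1 held 7.43, 6.24 and 6.57 CPM in the former and 3.11 and 2.87 CPM in the latter. Other markers were not higher in the former. Aldh1a2 held 4.87, 4.33 and 4.18 CPM there and 6.12 and 4.32 CPM in controls 2 and 3. Slc6a13 held 2.19, 2.41 and 2.5 CPM against 4.07 and 2.6 CPM, and Ogn 2.31, 2.35 and 1.74 CPM against 4.51 and 1.19 CPM. Between these libraries some markers thus differed and others were similar, so the low sums alone do not match them for fibroblast content. The part of fibroblasts in the collagen values was not tested. At 4 weeks none of the 12 was called.

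Of the 8 basement membrane collagens 6 rose at 4.5 weeks, where 33.3% of all genes were called higher (65.9% in either direction). The difference between the times was called for 3, beside 40.7% of all genes. Col4a1 and Col4a2, which make the common type IV network of vessels, were not called at 4 weeks: Col4a1 was at 37.9, 69.8 and 48.4 CPM in cKO and 45.7, 48.9 and 42.8 CPM in control libraries, and Col4a2 at 60.5, 83.4 and 70.2 CPM in cKO and 61.5, 68.5 and 58.0 CPM in control libraries. At 4.5 weeks Col4a1 held 90.5, 81.7 and 76.8 CPM in cKO and 47.8, 38.9 and 38.7 CPM in control libraries, and Col4a2 held 87.6, 88.4 and 76.2 CPM in cKO and 55.6, 56.1 and 54.3 CPM in control libraries. The groups overlapped at 4 weeks and were apart at 4.5 weeks. The log2 fold changes at 4.5 weeks were 0.99 ± 0.170 for Col4a1 and 0.61 ± 0.103 for Col4a2 (SE, adjusted p = 0.00021 and 0.00019), and at 4 weeks 0.19 for each (adjusted p = 0.43 and 0.18). The effects differed between the times by 0.80 for Col4a1 and 0.42 for Col4a2 (adjusted p = 0.017 and 0.036). The call of that difference for Col4a2 was lost in 11 of 21 other settings.

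Col18a1, whose product releases endostatin, was higher at both times. It held 16.4, 30.6 and 22.1 CPM in cKO and 11.5, 16.6 and 14 CPM in control libraries at 4 weeks, and 41.2, 36.5 and 32.4 CPM in cKO and 14.7, 11.4 and 10.7 CPM in control libraries at 4.5 weeks (log2 fold change 0.72 and 1.58, adjusted p = 0.016 and 2e-05). The groups were apart at 4.5 weeks only, and the call at 4 weeks was lost without control library 1 (adjusted p = 0.07), without cKO library 2 (0.084) and with a sex term (0.13). Col15a1, the related chain, was higher at 4.5 weeks (1.06, adjusted p = 0.0011). The chains Col4a3 and Col4a4, known from kidney, were low (0.296 to 2.97 CPM) and called at neither time.

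Col4a5 and Col4a6 lie head to head on the X chromosome, with RefSeq starts 1343 bases apart. Col4a5 held 24.4, 25.3 and 20 CPM in cKO and 12.9, 14.4 and 15.7 CPM in control libraries at 4 weeks, and 25.3, 25.9 and 20.1 CPM in cKO and 16.5, 14.6 and 11.7 CPM in control libraries at 4.5 weeks. It was apart at both times (log2 fold change 0.70 and 0.74, adjusted p = 0.0023 and 0.00052), with an adjusted p of 0.084 at 4 weeks under a sex term. Col4a6 held 5.22, 6.27 and 4.52 CPM in cKO and 4.22, 2.46 and 1.68 CPM in control libraries at 4.5 weeks, without overlap, and was called there (0.94, adjusted p = 0.016), a call lost without control library 2 or 3 or cKO library 2 (adjusted p from 0.056 to 0.067). The windows of 250 bases before each start, in GRCm38.p6, are shown because the genes start near each other; the windows do not overlap. They are at chrX:141475169-141475418 (plus strand) for Col4a5 and chrX:141474077-141474326 (minus strand) for Col4a6, with capitals for the same motifs.
Col4a5: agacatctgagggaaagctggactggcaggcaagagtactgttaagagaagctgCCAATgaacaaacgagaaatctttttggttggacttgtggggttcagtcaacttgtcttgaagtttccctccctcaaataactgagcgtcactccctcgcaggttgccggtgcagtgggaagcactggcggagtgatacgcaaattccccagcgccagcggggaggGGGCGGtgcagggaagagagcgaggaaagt
Col4a6: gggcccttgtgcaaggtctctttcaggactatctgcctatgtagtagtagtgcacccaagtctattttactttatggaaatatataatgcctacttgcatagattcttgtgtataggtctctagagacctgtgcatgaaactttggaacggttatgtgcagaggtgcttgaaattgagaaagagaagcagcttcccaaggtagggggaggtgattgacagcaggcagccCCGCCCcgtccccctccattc
Each window held a GC box, and that of Col4a5 also a CCAAT box.

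Of the 11 laminins 6 rose at 4.5 weeks, where 33.3% of all genes were called higher (65.9% in either direction). The difference between the times was called for 4, beside 40.7% of all genes. Lama5, an alpha chain of vessel and other basement membranes, was the only laminin called at 4 weeks. It held 15.9, 21.0 and 18.2 CPM in cKO and 13, 15.1 and 11.5 CPM in control libraries at 4 weeks, and 39.7, 35.6 and 41.7 CPM in cKO and 14.4, 15.8 and 13.1 CPM in control libraries at 4.5 weeks. The groups were apart at both times, with log2 fold changes of 0.48 ± 0.124 and 1.44 ± 0.123 (SE, adjusted p = 0.0087 and 3.7e-07), and the adjusted p at 4 weeks was 0.08 under a sex term. Lama3, an alpha chain best known from epithelia, held 2.64, 2.62 and 2.83 CPM in cKO and 3.04, 3.35 and 2.66 CPM in control libraries at 4 weeks, and 7.40, 6.90 and 6.34 CPM in cKO and 3.36, 2.98 and 2.98 CPM in control libraries at 4.5 weeks (log2 fold change -0.16 and 1.15, adjusted p = 0.4 and 8e-06). Its effect differed between the times by 1.31 (adjusted p = 0.00017), and Lamb3, a beta chain of epithelial laminin, was called at neither time.

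Lamc1, Lamb2 and Lama2, chains of the laminins of vessels and of the astrocyte border, were called at 4.5 weeks alone. Lamc1, the most widely used gamma chain, held 59.5, 67.0 and 56.5 CPM in cKO and 50.7, 56.0 and 64.5 CPM in control libraries at 4 weeks, and 98.0, 90.4 and 84.7 CPM in cKO and 69.6, 58.4 and 58.3 CPM in control libraries at 4.5 weeks (log2 fold change 0.10 and 0.55, adjusted p = 0.5 and 0.00034). Lamb2, a beta chain of vessel and synaptic basement membranes, held 77.3, 63.4 and 65.6 CPM in cKO and 64.3, 42.7 and 41.5 CPM in control libraries at 4.5 weeks. Lama2, the alpha chain of the astrocyte border and of nerve, held 22, 20.1 and 19.2 CPM in cKO and 17, 13.1 and 11.8 CPM in control libraries at 4.5 weeks. Lamc1 and Lama2 were apart at 4.5 weeks, and for Lamb2 control library 1 stood among the cKO values. At 4 weeks Lamb2 averaged 48.7 ± 10 CPM in cKO and 51.9 ± 2.87 CPM in control libraries and Lama2 averaged 12 ± 2.78 CPM in cKO and 11.9 ± 2.64 CPM in control libraries (SD, n = 3 each).

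The calls of Lamb2 (log2 fold change 0.47, adjusted p = 0.026), Lama2 (0.55, adjusted p = 0.025) and Lamc3 (0.71, adjusted p = 0.017) at 4.5 weeks lay near the threshold. That of Lamb2 was lost without control library 2 or 3 or cKO library 1 (adjusted p from 0.1 to 0.11), that of Lama2 without control library 2 or 3 or cKO library 1 or 2 (from 0.051 to 0.1), and that of Lamc3 without control library 2 or 3 or cKO library 1 (from 0.06 to 0.074). The log2 fold changes were then 0.36 to 0.38 for Lamb2, 0.44 to 0.56 for Lama2 and 0.58 to 0.63 for Lamc3. Without control library 1 the values were 0.70 for Lamb2, 0.70 for Lama2 and 0.92 for Lamc3 (adjusted p = 0.001, 0.0095 and 0.0059). Lamc3, a gamma chain known from retina and vessels, averaged 4.61 ± 1.26 CPM in cKO and 6.03 ± 1.27 CPM in control libraries at 4 weeks, and 10 ± 1.5 CPM in cKO and 6.16 ± 1.49 CPM in control libraries at 4.5 weeks (SD, n = 3 each). Lama1, Lama4, Lamb1 and Lamb3 were called at neither time, with log2 fold changes from -0.48 to 0.18 at 4 weeks and from -0.14 to 0.51 at 4.5 weeks.

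Vessel cell markers were read beside the basement membrane genes. Of 8 endothelial markers 1 was lower at 4 weeks and 3 were higher at 4.5 weeks, with sums of 355, 275 and 326 CPM in cKO and 254, 225 and 234 CPM in control libraries at 4.5 weeks. Of 8 mural cell markers, 1 was lower at 4 weeks, and 5 were higher and 1 lower at 4.5 weeks. Their sums overlapped at 4.5 weeks, with 421.5, 347 and 350.3 CPM in cKO and 370.2, 240.7 and 246.8 CPM in control libraries. Among all genes, 33.3% were called higher and 32.6% lower at that time. Microglia and macrophage markers rose in 6 of 6 genes at 4.5 weeks, with sums of 3470.2, 3315 and 3043 CPM in cKO and 244, 237 and 246 CPM in control libraries, and oligodendrocyte progenitor markers in 3 of 4 genes. Astrocyte markers were lower in 6 of 6 genes at both times. The part of these cell types in the collagen and laminin values was not tested.

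The test of the difference between the times found 18 of the 50 genes with an effect higher at 4.5 than at 4 weeks and 1 lower, Col25a1. Of all genes, 18.7% were called higher and 21.9% lower in that test (40.7% in all), and the median difference was 0.57 for the 50 genes and -0.03 for all genes. The 4 with the smallest p were Col20a1, Col9a1, Col9a2 and Lama3. Col5a1, Col5a2, Col4a5 and Col2a1 had differences of 0.07, 0.04, 0.04 and 0.20, with 95% intervals of -0.65 to 0.78, -0.40 to 0.49, -0.40 to 0.48 and -0.42 to 0.83. Those intervals leave room for a change in either direction. The same controls enter each comparison at a time and again in this difference.

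Control library 1 of 4.5 weeks was the highest control of its time for 36 of the 50 genes, for 10 of 11 laminins and 7 of 8 basement membrane collagens. Its level over the mean of the other controls was 7.08-fold for Col3a1, 3.78-fold for Col1a1, 2.71-fold for Lama4 and 2.4-fold for Col1a2. It was 0.934-fold for Col20a1, 0.904-fold for Col9a3, 1.01-fold for Col16a1 and 1.05-fold for Col2a1. Among genes below the level needed to enter the 50, Col28a1, known from Schwann cells, held 3.87 CPM there and 0.182 and 0.269 CPM in the other controls. Without that library, 39 of the 50 were higher and 2 lower in cKO at 4.5 weeks, where 31.3% of 19701 genes tested were higher and 30.7% lower (62% in all), and the median log2 fold change was 1.11 (0.03 for all genes). Among others, Col1a1, Col1a2, Col3a1, Col4a3, Col6a2, Col8a1, Lama4 and Lamb1 were then called higher, and Col23a1 was no longer called. Lama4 rose by 1.15 on the log2 scale without it (adjusted p = 0.0044). The call counts were read from 2 controls against 3 cKO libraries in that setting.

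Genes that act on these proteins were read from lists of partners, to be set beside the 37.2% of all genes called at 4 weeks and the 65.9% at 4.5 weeks. Of 29 collagen processing genes, 10 were higher and 3 lower at 4 weeks, and 18 higher and 5 lower at 4.5 weeks (medians 0.33 and 0.97 on the log2 scale). Fkbp10, a collagen chaperone, rose by 1.64 and Plod2, a lysyl hydroxylase, by 0.77 at 4 weeks, while Plod1, another lysyl hydroxylase, was at -0.62 and Adamts3, a procollagen protease, at -0.60 (all called). At 4.5 weeks the procollagen protease gene Bmp1 rose by 1.67 and the collagen glycosyltransferase gene Colgalt1 by 1.83, while Pcolce2, an enhancer of procollagen cleavage, fell by 1.64 and Adamts2 by 1.56. Plod1 held 43.9, 44.4 and 49.3 CPM in cKO and 71.3, 68.6 and 71.0 CPM in control libraries at 4 weeks, and 112.6, 117.8 and 114.4 CPM in cKO and 59.1, 61.9 and 60.8 CPM in control libraries at 4.5 weeks. It was lower at the first time and higher at the second, with no overlap at either.

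Of 13 basement membrane partners, 3 were higher and 1 lower at 4 weeks, and 7 higher and 1 lower at 4.5 weeks, in all no larger a share than the 37.2% and 65.9% of all genes called. Npnt, an integrin ligand of basement membranes, rose by 1.31 and 3.05 on the log2 scale at 4 and 4.5 weeks, the perlecan gene Hspg2 by 0.65 at 4 weeks and the fibulin gene Fbln2 by 1.69 at 4.5 weeks. Nid1, which links laminin to type IV collagen, was lower in cKO at both times (-0.92 and -0.66), with 24.7, 28.7 and 18.2 CPM in cKO and 38.9, 44.6 and 52.5 CPM in control libraries at 4 weeks. Among 14 interstitial matrix partners, 3 were higher at 4 weeks and 4 at 4.5 weeks, and none was lower at either. Tnc and Postn, which encode matrix proteins of injured tissue, rose by 2.43 and 1.82 at 4 weeks, and Postn and Thbs1 by 4.16 and 3.23 at 4.5 weeks. Ogn and Lum stand in this list and among the fibroblast markers.

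Of 19 receptor genes tested, 5 were higher and 4 lower at 4 weeks, and 9 higher and 4 lower at 4.5 weeks, beside 20.1% and 17.2% of all genes at 4 weeks and 33.3% and 32.6% at 4.5 weeks. Lair1, an inhibitory collagen receptor of leukocytes, rose by 1.12 and 3.37, and Itgav, an integrin alpha chain, by 0.34 and 0.96 on the log2 scale at 4 and 4.5 weeks. Itgb4, the laminin-binding integrin beta chain, held 34.3, 33.3 and 27.9 CPM in cKO and 85.2, 91.7 and 81.1 CPM in control libraries at 4 weeks (log2 fold change -1.43) and was at -1.78 at 4.5 weeks. Adgrg1, a receptor for type III collagen, was lower at 4 weeks (-0.69), and the synaptic vesicle gene Sv2a at 4.5 weeks (-1.42). Of 15 tested genes of transforming growth factor signalling, which raises transcription of many collagen genes, 9 were higher and 4 lower at 4 weeks, and 9 higher and 3 lower at 4.5 weeks. Smad3 rose by 1.45 and Tgfbr1 by 0.86 at 4 weeks, and Tgfbr1 by 2.64 and Tgfb1 by 3.85 at 4.5 weeks, while Tgfb3 was lower at both times (-0.70 and -1.22), as was Ltbp4 (-0.52 and -0.71).

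Of the 50 genes, 7 pairs are neighbours in the RefSeq annotation. The neighbours Col9a1 and Col19a1 on chromosome 1 moved in opposite directions at 4.5 weeks (log2 fold change 2.08 and -1.15). Col4a1 and Col4a2, with starts 21 bases apart on chromosome 8, had the same sign at both times (0.19 each at 4 weeks, 0.99 and 0.61 at 4.5 weeks). The libraries did not keep strand, so reads where neighbouring genes overlap cannot be assigned by strand.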

How the data were processed

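Polyadenylated RNA of 12 spinal cords was sequenced with a kit that does not keep strand. The deposited values are the authors' estimated counts per gene (RSEM expected counts). STAR, RSEM and the mm39 build are named in the submitters' processing notes, and the annotation release is not given in the sources used here. Expected counts were rounded to whole numbers. Of 56953 rows, 6753 had no symbol, and 27 symbols that had been turned into dates were restored. Library totals were 33104560 to 47677267 counts.

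Genes passing edgeR's expression filter (19278) were scaled by TMM and fitted with edgeR's quasi-likelihood test (edgeR 4.0.16, R 4.3.3) over the 4 groups, with cKO against control at each time, the difference of these effects, and controls against controls. A call is a Benjamini-Hochberg adjusted p below 0.05 over all genes tested, and the fit was tested on simulated data. Intervals are 95%. The labels call the animals of a group independent and give no litters or batches.

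Alternatives were DESeq2 1.42.0, limma-voom (limma 3.58.1), other scalings and filters, a sex term, a replicate block, each time alone, and leaving out libraries. Named regardless of call were Col1a1, Col1a2, Col3a1, Col4a1, Col4a2, Lama2, Lamb2 and Lamc1, then in each class and time the 4 called genes with the smallest p, the 4 smallest p for the difference, the 3 smallest for the controls, genes with 1 library over 3 times the mean of the other libraries of its group at 5 CPM or more, and at most 2 called partners per list, direction and time. Other genes, such as Col25a1, Col11a2, Col6a6 and Col28a1, were named after their values were seen. The members, lists and tests were chosen with earlier results of these data known. Exon lengths are from GENCODE M21, and promoter windows and neighbours from RefSeq on GRCm38.p6, builds other than the files', used for lengths, sequences and neighbours only. The values of 1 of the 50 genes are counted in the totals and not reported here by name.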

Additional observations from a re-analysis of the deposited data

Results flagged for a closer look

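For 19 of the 50 genes the effect of cKO over control differed between the times by the interaction test (edgeR, adjusted p below 0.05). Of all genes tested, 40.7% were called in that test in either direction, so a count of this size is not particular to these genes. The effect at 4.5 weeks minus that at 4 weeks, on the log2 scale, was 4.75 for Col20a1, 2.51 for Col9a1, 1.32 for Col9a2 and 0.97 for Col9a3. It was 1.80 for Col13a1, 0.93 for Col7a1, 0.65 for Col6a1 and 0.58 for Col16a1 among the other non-fibrillar collagens, and -0.87 for Col25a1, where the fall was larger at 4.5 weeks. Among fibrillar collagens it was 1.11 for Col5a3, 1.07 for Col11a2 and 0.57 for Col11a1. Among basement membrane collagens it was 0.86 for Col18a1, 0.80 for Col4a1 and 0.42 for Col4a2. Among laminins it was 1.31 for Lama3, 1.09 for Lamc3, 0.95 for Lama5 and 0.46 for Lamc1. The animals at the earlier time were of both sexes and those at the later time were female, and with a sex term the difference was no longer called for Col11a1 (adjusted p = 0.083), Col18a1 (0.084), Col4a2 (0.097) and Col7a1 (0.12). Leaving out single libraries ended the call in 9 cases for Col4a2, 7 for Col18a1, 5 each for Col6a1 and Lamc1, 3 for Lamc3, 2 for Col7a1 and 1 for Col13a1.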

How the results depend on the processing

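Leaving out 1 library at a time gave 15 to 20 called genes at 4 weeks, 27 to 41 at 4.5 weeks, 14 to 27 for the difference between the times and 1 to 8 between the control groups, the 8 being without control library 1 of 4.5 weeks. Between the control groups DESeq2, limma-voom and the replicate block each called 2 genes and a sex term 0, against 1. Same-numbered animals did not deviate together, and a replicate block gave 16 calls at 4 weeks, 36 at 4.5 weeks and 21 for the difference. Over 1118 values of named genes under other settings, 1069 kept direction and call, 19 lost the call, 10 gained it and 20 changed sign. The changes of sign, none where the gene was called in that same comparison, were at 4 weeks in Col1a1 (0.22 without control library 3, 0.38 without cKO library 3), Col1a2 (0.07 and 0.18 without the same libraries), Col3a1 (-1.07 with a sex term, -0.42 without cKO library 2), Col4a1 (-0.09 without cKO library 2), Col9a2 (-0.09 with a sex term), Lamb2 (0.06 without cKO library 3) and Lamc1 (-0.02 with a sex term). They were also in Lama2 (-0.41 with a sex term, -0.15 without control library 1, -0.15 without cKO library 1, -0.03 without cKO library 2) and in Col8a2 (-0.38 with a sex term, -0.04 and -0.06 without control library 1 or 2, -0.16 without cKO library 1). At 4.5 weeks Col8a2 was at 0.45 without control library 1 and 0.53 without control libraries 1 and 2. The cause was not tested. Leaving out 1 library at a time, the values at 4 weeks reached as far as -0.31 for Col1a2, 0.60 for Col3a1, 0.35 for Col4a1, 0.37 for Col8a2, 0.19 for Lama2 and -0.24 for Lamb2 at the other end, and -0.63 for Col8a2 at 4.5 weeks. Genes near 1 CPM, such as Lamb3 and Col6a6, have the fewest counts behind them. Col9a1 was low too (1.21 to 2.62 CPM) outside cKO at 4.5 weeks, where it held 5.94 to 7.23 CPM.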
